A study of Mus musculus with 114 samples.

Results

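Markers of fat progenitors and fibroblasts were examined in adipocyte RNA from perigonadal fat as mice stayed on a high fat diet. The group holds 10 genes, Pdgfra, Pdgfrb, Dpp4, Pi16, Ly6a, Cd34, Cd248, Dcn, Lum and Mfap5. They were looked up by symbol among the 29132 genes listed, and all 10 were found. The genes were chosen with earlier results of these data known. The RNA came from male C57BL/6 mice (C57BL/6J in the study's methods) placed at 6 weeks of age on a chow (CD) or a high fat (HFD) diet. After 8 weeks 6 CD and 6 HFD mice were sampled, after 20 weeks 6 and 6, and after 34 weeks 8 and 6, which makes 38 mice. The labels name no allele or drug, and all groups share the same preparation, in which adipocytes were taken as the cells that float after the fat pad is digested with collagenase. Floating adipocytes can carry other cells with them, so the fraction is a preparation of adipocytes and not a sort by a marker. The 114 labelled samples are 3 technical replicates of each mouse, merged by the authors into 1 value per gene and mouse, so the mouse is the replicate throughout.

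Fat progenitors are fibroblast-like cells of the stroma that can turn into adipocytes or lay down matrix. Most carry PDGFRα, the receptor tyrosine kinase through which platelet-derived growth factors signal, while PDGFRβ also marks the mural cells that wrap small vessels. In the layer of connective tissue around fat lobules and organs, progenitors that carry DPP4 and PI16 are regarded as an early, uncommitted state. Decorin, lumican and MFAP5 are secreted into the matrix, decorin and lumican on collagen fibrils and MFAP5 on microfibrils.

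Each value is a number of reads scaled to a total of 1000000 per mouse (CPM). A mouse had between 9275711 and 15480388 reads, so 1 read equals 0.0646 to 0.108 CPM, and the 8 week HFD mice had more reads (13201234 to 15480388) than the 8 week CD mice (10562845 to 12611013). Of the 10343 genes whose mean log2(CPM + 1) over all mice was above 2.0, 9 were members. Pi16, with a mean of 1.37, fell below the threshold, and Dpp4 (2.09) and Cd248 (2.15) lay just above it. Differences are on the log2(CPM + 1) scale, fitted with limma over all 38 mice, with p-values adjusted over the 10343 genes by the method of Benjamini and Hochberg and a threshold of 0.05. This scale understates the change of genes near 1 CPM, so the ratio of mean CPM is given as well for most members. Scaling by the trimmed mean of M-values (TMM) or by median-of-ratios size factors in place of the read total moved the median difference of all genes from 0.11 to 0.00 and 0.01 at 8 weeks and from 0.14 to -0.05 and -0.02 at 20 weeks. With TMM the genes that were higher and lower in HFD mice numbered 2299 and 2306 at 8 weeks, 2807 and 3248 at 20 weeks and 2292 and 2253 at 34 weeks, against 3083 and 1565, 3957 and 1937, and 2840 and 1628 with the read total.

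A few mice stood apart from their group in most members. Among CD mice, mouse 4 at 8 weeks had the highest value of its group in 8 of 10 members, and mouse 1 at 20 weeks and mouse 5 at 34 weeks in 7 each. In HFD mice, mouse 2 at 8 weeks and mouse 4 at 20 weeks had the lowest value of their group in 10 of 10 members. HFD mouse 3 at 8 weeks had the highest value of its group in 7 members. Marker lists of other cells also had extreme sums in some of these mice. CD mouse 5 at 34 weeks had a summed level of macrophage markers of 12156 CPM, against 1177 to 7723 in the other 7 mice, and of adipocyte markers of 44374 CPM against 60000 to 89169. CD mouse 1 at 20 weeks had 3210 CPM of macrophage markers against 476 to 1495. CD mouse 4 at 8 weeks had 286 CPM of endothelial markers against 33.1 to 109, whereas HFD mouse 2 at 8 weeks had 91.6 CPM against 202 to 451. The part of these cells in the member values was not tested. Some of the counts and differences that rest on these mice are given below with and without them, mostly for the CD mice. Of the diet differences, that of Pdgfra at 8 weeks alone is given without HFD mouse 2. None is given singly without HFD mouse 3 at 8 weeks or HFD mouse 4 at 20 weeks. The range of the counts over all fits that left out 1 mouse stands at the end.

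**Figure D1:**
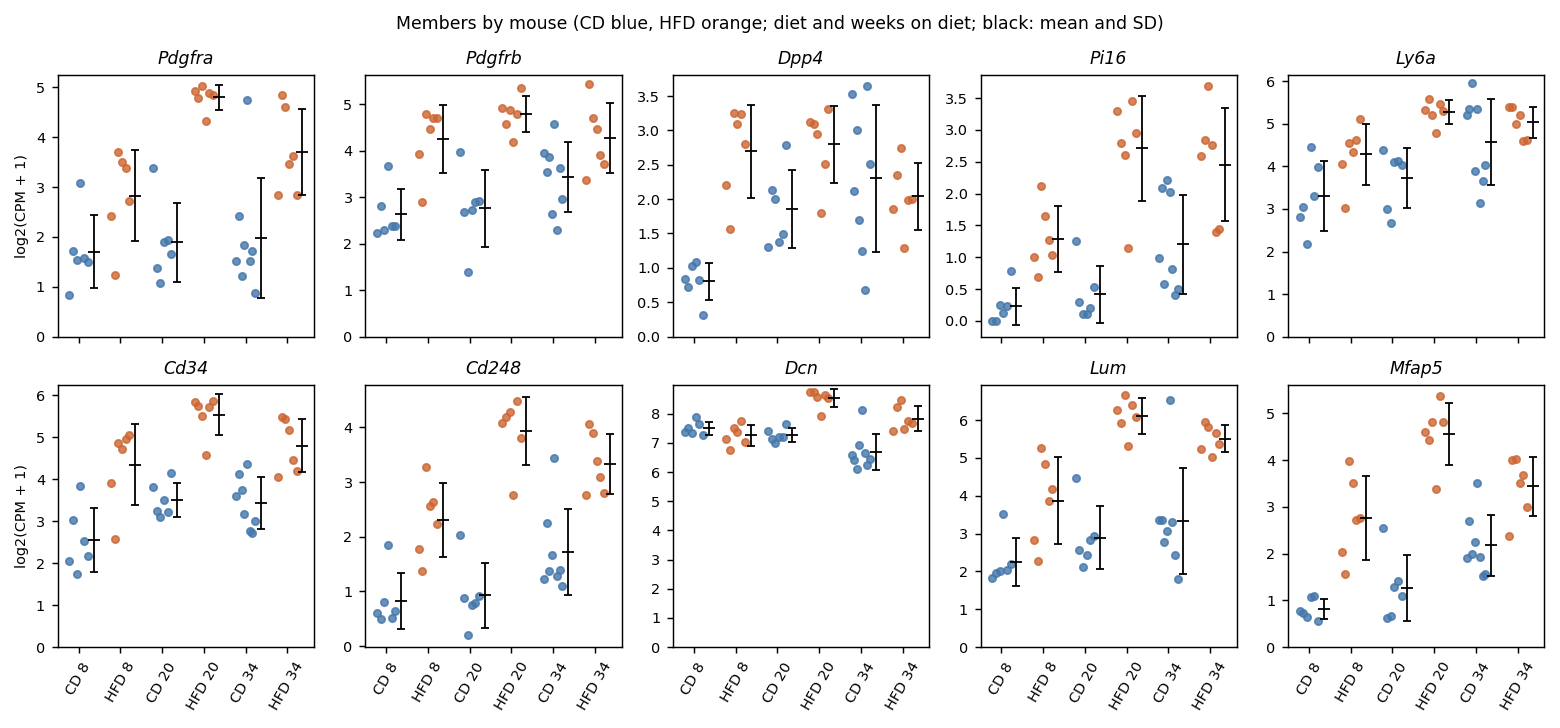
Level of each of the 10 members in every mouse on a log2(CPM + 1) axis that starts at 0 or just below, by diet and weeks on diet, with the mean and SD of each group in black. HFD mice at 20 weeks are the highest group in all 10 panels, and CD mouse 5 at 34 weeks lies level with or above HFD mice of that time in Pdgfra, Cd248, Dcn, Lum and Mfap5.

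The first question was whether these genes were higher in HFD than in CD mice at each time. Of the 9 members tested, 7 were higher in HFD mice at 8 weeks, 9 at 20 weeks and 6 at 34 weeks, and none was lower. Over all genes tested the share higher was 29.8% at 8 weeks, 38.3% at 20 weeks and 27.5% at 34 weeks, while the share lower was 15.1%, 18.7% and 15.7% and the share changed in either direction 44.9%, 57.0% and 43.2%. The median log2 difference of the 9 was 1.62, 2.04 and 1.26, beside 0.11, 0.14 and 0.07 for all genes. Pdgfra (1.71, 1.89 and 1.98) and Cd248 (0.82, 0.93 and 1.72) had a mean log2(CPM + 1) under 2.0 in the CD groups at 8, 20 and 34 weeks. Mfap5 (0.81, 1.27 and 2.17) and Dpp4 (0.80, 1.85 and 2.30) were under 2.0 in the CD groups at 8 and 20 weeks. These members passed the filter through their HFD values, so the counts and medians above describe the 9 and are no support for a difference. With no filter, when all 10 members entered, 7, 9 and 7 were higher, beside 3380, 5191 and 3537 of 21166 genes. The lowest HFD mouse exceeded the highest CD mouse in 2 members at 8 weeks (15.7% of all genes), 8 at 20 weeks (26.1%) and 0 at 34 weeks (1.47%). In bulk RNA of this kind, more or fewer cells of a type cannot be told apart from more or less RNA per cell. Without the 3 CD mice named above, which lowers the CD level by construction, 8, 8 and 7 members were higher at the 3 times, and the diets did not overlap in 5, 8 and 4 of the 9 members, beside 17.9%, 33.5% and 6.52% of all genes. The 4 members without overlap at 34 weeks were then Pdgfra, Cd248, Dcn and Lum.

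Pdgfra (chromosome 5, 75151322 to 75198206, GRCm38), which encodes the receptor of PDGF-A and related ligands, had low values in CD mice, of a few CPM at most times. Its values in CD mice were 0.793 to 7.41 CPM (median 1.94) at 8 weeks, 1.10 to 9.38 CPM (median 2.45) at 20 weeks and 0.822 to 25.8 CPM (median 2.07) at 34 weeks. In HFD mice they were 1.36 to 12.1 CPM (median 7.48) at 8 weeks, 19.1 to 31.5 CPM (median 28.3) at 20 weeks and 6.11 to 27.8 CPM (median 10.6) at 34 weeks. At 20 weeks the 6 HFD mice all exceeded the highest CD mouse, and at 34 weeks a single CD mouse overlapped with the HFD mice. At 8 weeks 3 of the 6 HFD mice exceeded all CD mice, and 5 CD mice exceeded the lowest HFD mouse. The difference at 20 weeks was 2.91 (SE 0.48, adjusted p = 6.93e-06), with a ratio of mean CPM of 8.22. At 8 weeks it was 1.12 (SE 0.48, adjusted p = 0.0574) and did not pass the threshold, but it did without CD mouse 4, at 1.40 (adjusted p = 0.0221), and without HFD mouse 2, at 1.44 (adjusted p = 0.0149). At 34 weeks it was 1.72 (SE 0.45, adjusted p = 0.00303). CD mouse 5 had 25.8 CPM there, and without this mouse the difference was 2.12 (adjusted p = 4.17e-05). Reads on the antisense genes Gm42802 and Gm42803, which overlap Pdgfra, could be counted with it, since the setting for strand is not given in the sources used here.

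Pdgfrb (chromosome 18), the other PDGF receptor, is shared by progenitors and mural cells. It had 3.70 to 11.9 CPM (median 4.21) at 8 weeks, 1.62 to 14.8 CPM (median 6.04) at 20 weeks and 3.89 to 22.9 CPM (median 11.1) at 34 weeks in CD mice. In HFD mice it had 6.51 to 26.8 CPM (median 23.1) at 8 weeks, 17.2 to 40.2 CPM (median 27.8) at 20 weeks and 9.43 to 42.5 CPM (median 17.6) at 34 weeks. The HFD mice lay above the CD mice without overlap at 20 weeks, and 5 of 6 did so at 8 weeks. The differences were 1.62 (SE 0.38, adjusted p = 0.00115) at 8 weeks and 2.02 (SE 0.38, adjusted p = 3.99e-05) at 20 weeks. At 34 weeks the difference was 0.84 (SE 0.36, adjusted p = 0.0564), and it passed the threshold without CD mouse 5, at 1.00 (adjusted p = 0.0193), and in 8 of the 38 fits that left out 1 mouse. Its ratio of mean CPM was 3.51, 4.08 and 1.86 at the 3 times.

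Dpp4 (chromosome 2, 62330073 to 62412315), a membrane-bound serine peptidase, moved with time on chow as well as with diet. In CD mice it had 0.238 to 1.11 CPM (median 0.784) at 8 weeks, 1.47 to 5.88 CPM (median 2.42) at 20 weeks and 0.593 to 11.5 CPM (median 4.01) at 34 weeks. In HFD mice it had 1.97 to 8.53 CPM (median 6.79) at 8 weeks, 2.48 to 8.91 CPM (median 7.11) at 20 weeks and 1.44 to 5.71 CPM (median 2.99) at 34 weeks. Every HFD mouse exceeded every CD mouse at 8 weeks, 4 of 6 did at 20 weeks, and at 34 weeks no HFD mouse did, since 3 CD mice exceeded the highest HFD mouse. The diet difference was 1.89 (SE 0.38, adjusted p = 0.000245) at 8 weeks, which is a ratio of mean CPM of 7.84, then 0.94 (SE 0.38, adjusted p = 0.0352) at 20 weeks and -0.27 (SE 0.36, adjusted p = 0.562) at 34 weeks, where its 95% interval was -1.0 to 0.46. The call at 20 weeks was made in 5 of 11 alternatives, and not with TMM or median-of-ratios factors (adjusted p = 0.0698 and 0.0599), edgeR or DESeq2, with adjusted p from 0.00028 to 0.0822 over the 11. It was made in 31 of the 38 fits that left out 1 mouse, and not without CD mouse 1 at 20 weeks, at 0.84 (adjusted p = 0.0749). The antisense gene Gm13561 overlaps Dpp4.

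Pi16 (chromosome 17, 29318796 to 29328903), which encodes a secreted or membrane-anchored peptidase inhibitor, had few reads in CD mice and none in 2 of the 6 at 8 weeks. It had 0 to 0.714 CPM (median 0.132) at 8 weeks, 0.0736 to 1.40 CPM (median 0.187) at 20 weeks and 0.325 to 3.62 CPM (median 0.871) at 34 weeks in CD mice, where the median of 0.132 CPM at 8 weeks is close to that of 1 read. In HFD mice it had 0.606 to 3.36 CPM (median 1.22) at 8 weeks, 1.21 to 9.94 CPM (median 6.37) at 20 weeks and 1.64 to 11.8 CPM (median 5.4) at 34 weeks. In HFD mice 5 of 6 values exceeded all CD values at 8 weeks, 5 of 6 at 20 weeks and 4 of 6 at 34 weeks. As it did not pass the filter on low values, each comparison was made with a two-sided exact permutation test over mice and adjusted over its 9 comparisons. The mean log2(CPM + 1) was higher in HFD mice by 1.06 at 8 weeks (exact p = 0.00433, adjusted 0.0195), by 2.29 at 20 weeks (exact p = 0.00433, adjusted 0.0195) and by 1.25 at 34 weeks (exact p = 0.0187, adjusted 0.0325). With no filter on low values, limma gave the same differences with adjusted p = 0.0354, 1.01e-05 and 0.00764. The ratio of mean CPM was 8.18, 16.0 and 3.32 at the 3 times, where the CD means at 8 and 20 weeks rest on few reads. The smallest p an exact test can give is 0.00216 for 6 against 6 mice and 0.000333 for 6 against 8. An antisense gene, AC162182.1, overlaps Pi16.

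Ly6a (chromosome 15, 74994877 to 74998031) encodes SCA-1, a GPI-anchored protein on progenitors that endothelial and immune cells also carry. Its values were 3.50 to 20.9 CPM (median 8.06) at 8 weeks, 5.37 to 19.9 CPM (median 15.8) at 20 weeks and 7.79 to 61.8 CPM (median 25.8) at 34 weeks in CD mice. They were 7.12 to 33.6 CPM (median 20.8) at 8 weeks, 26.5 to 47.0 CPM (median 38.9) at 20 weeks and 23.3 to 41.0 CPM (median 33.7) at 34 weeks in HFD mice. Diets did not overlap at 20 weeks, and at 34 weeks no HFD mouse exceeded the highest CD mouse. The difference was 0.99 (SE 0.40, adjusted p = 0.0431) at 8 weeks, 1.56 (SE 0.40, adjusted p = 0.00131) at 20 weeks and 0.46 (SE 0.37, adjusted p = 0.324) at 34 weeks, with a 95% interval of -0.30 to 1.22. The call at 8 weeks was made in 5 of 12 alternatives, and not with TMM or median-of-ratios factors (adjusted p = 0.0606 and 0.0594), edgeR or DESeq2, with adjusted p from 0.00036 to 0.0824 over the 12. It was made in 30 of the 38 fits that left out 1 mouse. Ly6a stands in a cluster of related genes, with Ly6c1 at a mean of 22.2 CPM and Ly6e at 247 CPM nearby. The study's methods counted reads that overlapped a gene without ambiguity, so reads shared by such copies could be missing from its value.

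Cd34 (chromosome 1, 194938821 to 194961292), a sialomucin of progenitors and of capillary endothelium, had 2.37 to 13.3 CPM (median 4.11) at 8 weeks, 7.51 to 16.6 CPM (median 9.47) at 20 weeks and 5.6 to 19.4 CPM (median 9.55) at 34 weeks in CD mice. The values in HFD mice were 5.00 to 32.3 CPM (median 26.8) at 8 weeks, 22.8 to 56.8 CPM (median 52.1) at 20 weeks and 15.7 to 43.4 CPM (median 28.0) at 34 weeks. HFD mice exceeded all CD mice in 5 of 6 cases at 8 weeks, 6 of 6 at 20 weeks and 4 of 6 at 34 weeks. It was higher at all 3 times, by 1.79 (SE 0.37, adjusted p = 0.00031), 2.04 (SE 0.37, adjusted p = 2.29e-05) and 1.37 (SE 0.35, adjusted p = 0.00221). The antisense gene Gm16897 overlaps Cd34.

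Cd248 (chromosome 19, 5068078 to 5070640) encodes endosialin, a C-type lectin-like protein of stromal and perivascular cells. Few reads fell on it in CD mice, with 0.408 to 2.59 CPM (median 0.542) at 8 weeks, 0.147 to 3.08 CPM (median 0.782) at 20 weeks and 1.15 to 9.84 CPM (median 1.60) at 34 weeks. In HFD mice the values were 1.59 to 8.66 CPM (median 4.31) at 8 weeks, 5.74 to 21.4 CPM (median 16.6) at 20 weeks and 5.79 to 15.8 CPM (median 8.46) at 34 weeks. It was higher at 8 weeks by 1.49 (SE 0.36, adjusted p = 0.00138), at 20 weeks by 3.01 (SE 0.36, adjusted p = 7.51e-08) and at 34 weeks by 1.62 (SE 0.34, adjusted p = 0.000415). At 20 weeks every HFD mouse exceeded every CD mouse, and the ratio of mean CPM was 14.4.

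Dcn (chromosome 10, 97479500 to 97518163), which encodes decorin, had the highest level per kilobase in 5 of the 6 groups, and at 8 weeks it was the member whose diet difference was below 0. In CD mice the values were 154 to 234 CPM (median 173) at 8 weeks, 127 to 200.1 CPM (median 145) at 20 weeks and 68.3 to 279 CPM (median 91.0) at 34 weeks. The HFD mice had 108 to 217 CPM (median 151) at 8 weeks, 239 to 429 CPM (median 391) at 20 weeks and 168 to 354 CPM (median 208) at 34 weeks. At 8 weeks no HFD mouse exceeded the highest CD mouse, and the difference was -0.24 (SE 0.23, adjusted p = 0.407), with a 95% interval of -0.70 to 0.23. It did not pass the threshold in any of the 12 alternatives for that comparison, in which it lay between -0.35 and -0.16. At 20 weeks all HFD mice exceeded all CD mice, by 1.26 (SE 0.23, adjusted p = 2.25e-05), and at 34 weeks the difference was 1.15 (SE 0.21, adjusted p = 0.000152). CD mouse 5 at 34 weeks had 279 CPM, and without it the difference was 1.35 (adjusted p = 4e-07) and the diets no longer overlapped.

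Lum (chromosome 10, 97565501 to 97572703), which encodes lumican, lies 47338 bases from Dcn on the same strand, and Kera and Epyc beyond it had means of 0.00588 and 0.192 CPM. Both Dcn and Lum belong to the small leucine-rich proteoglycans. Lum had 2.56 to 10.5 CPM (median 3.06) at 8 weeks, 3.31 to 21.1 CPM (median 5.49) at 20 weeks and 2.47 to 91.5 CPM (median 8.14) at 34 weeks in CD mice. In HFD mice its values were 3.86 to 37.6 CPM (median 15.3) at 8 weeks, 38.4 to 101 CPM (median 71.1) at 20 weeks and 31.4 to 61.3 CPM (median 44.9) at 34 weeks. The diet difference was 1.62 (SE 0.51, adjusted p = 0.0112) at 8 weeks, 3.21 (SE 0.51, adjusted p = 4.07e-06) at 20 weeks and 2.19 (SE 0.48, adjusted p = 0.000676) at 34 weeks. With 91.5 CPM, CD mouse 5 at 34 weeks exceeded every HFD mouse of that age, while the other 7 CD mice had at most 9.18 CPM and all 6 HFD mice at least 31.4 CPM. Without that mouse the difference was 2.64 (adjusted p = 3.08e-06).

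Mfap5 (chromosome 6, 122513584 to 122529290), a microfibril-associated protein, had the largest fitted diet difference of the members at 8 and at 20 weeks. Its CD values were 0.476 to 1.12 CPM (median 0.679) at 8 weeks, 0.529 to 4.83 CPM (median 1.28) at 20 weeks and 1.87 to 10.4 CPM (median 2.89) at 34 weeks, and its HFD values 1.97 to 14.7 CPM (median 5.63) at 8 weeks, 9.36 to 40.1 CPM (median 25.1) at 20 weeks and 4.2 to 15.3 CPM (median 11.1) at 34 weeks. The diets did not overlap at 8 and 20 weeks. It was higher in HFD mice by 1.94 (SE 0.37, adjusted p = 0.000118) at 8 weeks, by 3.29 (SE 0.37, adjusted p = 3.7e-08) at 20 weeks and by 1.26 (SE 0.35, adjusted p = 0.00411) at 34 weeks. The ratio of mean CPM was 8.93, 14.5 and 2.65.

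**Figure D2:**
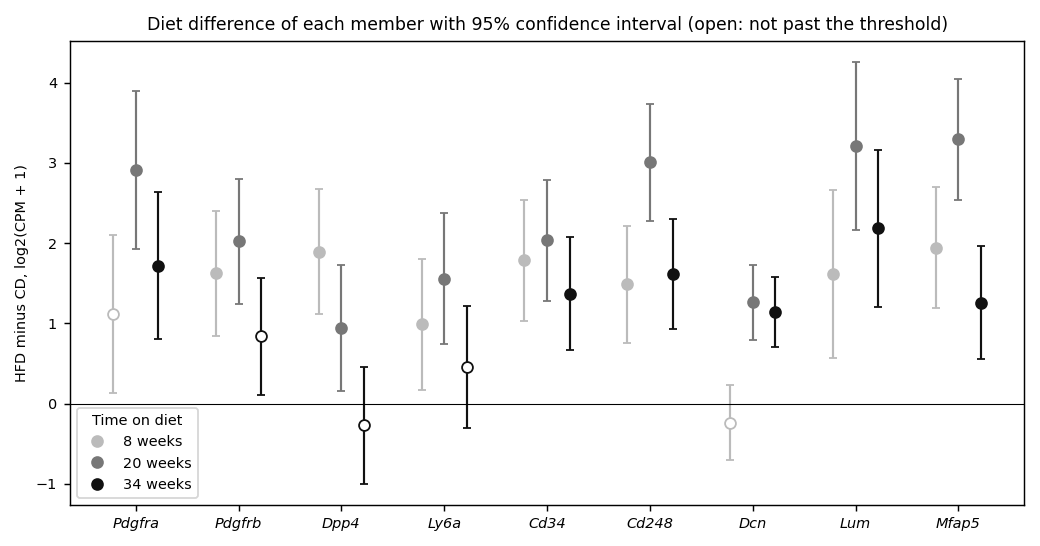
Difference between HFD and CD mice on the log2(CPM + 1) scale for the 9 members tested, with 95% confidence intervals, in shades of grey for 8, 20 and 34 weeks. Filled points passed the threshold. The 20 week point is the highest of the 3 for all members but Dpp4, and the open points are Pdgfra and Dcn at 8 weeks and Pdgfrb, Dpp4 and Ly6a at 34 weeks.

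The next question was how the members moved with time on each diet. In CD mice limma called 0 of 9 members between 8 and 20 weeks, where it called 3.58% of all genes, and edgeR and DESeq2 on the recovered reads each called 1. At an unadjusted p under 0.05, limma had 2 members, both higher at 20 weeks. Dpp4 differed by 1.05 (p = 0.00975, adjusted p = 0.124), with a ratio of mean CPM of 3.73. Cd34 differed by 0.94 (p = 0.0156, adjusted p = 0.162), with a ratio of 1.88. Between 20 and 34 weeks of CD, 4 members changed, beside 62.5% of all genes (41.1% higher and 21.4% lower), with Ly6a (0.86), Cd248 (0.79) and Mfap5 (0.90) higher and Dcn (-0.58) lower at 34 weeks. Without CD mouse 5 at 34 weeks 1 member was called, Dcn, at -0.78 (adjusted p = 0.000202), and 2 were called with TMM factors, with median-of-ratios factors, with pseudocount 4 and with no filter. From 8 to 34 weeks of CD, 7 members changed, beside 64.7% of all genes (40.1% higher and 24.6% lower). Dpp4 was higher by 1.50 (SE 0.36, adjusted p = 0.000521), Mfap5 by 1.36 (SE 0.35, adjusted p = 0.000941) and Ly6a by 1.28 (SE 0.37, adjusted p = 0.00343), with Cd248, Cd34 and Pdgfrb higher by 0.90, 0.87 and 0.80. Dcn was lower, at -0.81 (SE 0.21, adjusted p = 0.00142), and without CD mouse 5 at 34 weeks at -1.02 (adjusted p = 6.42e-06). The number of members called was 4 without that mouse and 8 without the 3 CD mice together. Pi16 was higher at 34 than at 8 weeks of CD by 0.97 (exact p = 0.0143, adjusted 0.0322).

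In HFD mice 7 members rose between 8 and 20 weeks, where 36.5% of all genes changed and 21.2% rose. The rises were led by Lum at 2.23 (SE 0.51, adjusted p = 0.00135) and Pdgfra at 1.97 (SE 0.48, adjusted p = 0.0023), and those of Mfap5, Cd248, Dcn, Cd34 and Ly6a were 1.81, 1.63, 1.27, 1.19 and 1.00. The call of Ly6a (adjusted p = 0.049) was made in 16 of the 38 fits that left out 1 mouse and in 6 of 12 alternatives. Pi16 was higher by 1.42 (exact p = 0.0108, adjusted 0.0322). Pdgfrb differed by 0.54 (SE 0.38, adjusted p = 0.273) and Dpp4 by 0.10 (SE 0.38, adjusted p = 0.858), which did not pass the threshold. Between 20 and 34 weeks of HFD the fitted difference was below 0 for all 9 members, with a median of -0.69 beside 0.06 for all genes, and it passed the threshold for Dcn, at -0.69 (SE 0.23, adjusted p = 0.0219), and Mfap5, at -1.13 (SE 0.37, adjusted p = 0.0203), where 30.2% of all genes changed and 12.5% fell. Neither was called without HFD mouse 1 at 34 weeks. From 8 to 34 weeks of HFD, Lum (1.64), Cd248 (1.02) and Dcn (0.57) were higher, where 52.5% of all genes changed and 31.7% rose. Without HFD mouse 2 at 8 weeks 1 member was called in this comparison, and on recovered reads edgeR called 0 and DESeq2 1.

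Whether the diet difference itself changed between times was tested as an interaction. Between 8 and 20 weeks it grew for Dcn, by 1.50 (SE 0.32, adjusted p = 0.0129), as the 1 member of 9 called, where it changed for 4.49% of all genes and grew for 2.81%. The estimates for Pdgfra, Cd248, Lum and Mfap5 were 1.79, 1.52, 1.60 and 1.35, with adjusted p between 0.0684 and 0.153. Those for Ly6a, Pdgfrb and Cd34 were smaller, at 0.57, 0.40 and 0.25, and that for Dpp4 was below 0, at -0.95. Their adjusted p lay between 0.248 and 0.773. The log2(CPM + 1) scale understates differences near 1 CPM, so it can alter an interaction as well. From 8 to 20 weeks the ratio of mean CPM went from 2.66 to 8.22 for Pdgfra and from 5.03 to 14.4 for Cd248. For Lum the ratio went from 4.13 to 9.12 and for Mfap5 from 8.93 to 14.5. It went from 1.98 to 2.87 for Ly6a, from 3.51 to 4.08 for Pdgfrb and from 3.93 to 4.42 for Cd34. For Dpp4 it fell from 7.84 to 2.21. Without CD mouse 1 at 20 weeks Pdgfra, at 2.09 (adjusted p = 0.0382), Cd248, at 1.74 (adjusted p = 0.0234), and Mfap5, at 1.60 (adjusted p = 0.0349), passed as well, and without the 3 CD mice together 5 members did. Between 20 and 34 weeks it shrank for Mfap5, at -2.03 (SE 0.51, adjusted p = 0.00966), where it changed for 10.5% of all genes and was lower for 6.31%, and for Cd248 it was -1.39 (SE 0.49, adjusted p = 0.0614). Between 8 and 34 weeks it shrank for Dpp4, at -2.16 (SE 0.53, adjusted p = 0.00262), and grew for Dcn, at 1.38 (SE 0.31, adjusted p = 0.0014), where it changed for 28.8% of all genes, with 15.9% lower and 13.0% higher.

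The order of the group means was much alike in most members. HFD at 20 weeks had the highest mean in 10 of 10, and CD at 8 weeks the lowest in all but Dcn, whose lowest mean was that of CD at 34 weeks. The mean of HFD at 34 weeks came next to the top in 9 members. In Dpp4 it was below that of HFD at 8 weeks and CD at 34 weeks, which had 6.03 ± 2.72 and 5.18 ± 4.16 CPM (mean ± SD, n = 6 and 8) against 3.31 ± 1.46 (n = 6). The difference of HFD at 34 weeks from either of them did not pass the threshold. The HFD means at 20 and 34 weeks differed by the test for Dcn and Mfap5, though for neither without HFD mouse 1 at 34 weeks, and for Pdgfra the difference was -1.10 (SE 0.48, adjusted p = 0.0823). Per kilobase of the exon union in GENCODE vM21, the level of Dcn ran from 19.4 CPM per kb in CD mice at 34 weeks to 64.2 in HFD mice at 20 weeks. Ly6a ran from 8.51 to 31.9 CPM per kb and was above Dcn in CD mice at 34 weeks, and Lum ran from 1.74 to 28.9. Pi16 was the lowest per kilobase in every group but HFD at 34 weeks, where Dpp4 was, and ran from 0.0306 to 0.990 CPM per kb.

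Members were also compared across mice within groups, as deviations of log2(CPM + 1) from the group mean. All 38 mice enter, and members of a pair share library, read total and RNA preparation, so these correlations are a description. Pdgfra went with Cd248 (Pearson r = 0.91), Lum (0.90), Mfap5 (0.83) and Dcn (0.81). Without the 5 mice that stood apart these were 0.84, 0.65, 0.77 and 0.64 over 33 mice. Dpp4 had an r of -0.02 to 0.38 with the other members, the highest being that with Pdgfrb (Spearman 0.45). Its r with Pi16, which marks the same uncommitted state, was 0.03 (Spearman 0.06). Without the same 5 mice the r of Dpp4 ran from -0.06 with Pi16 to 0.55 with Pdgfrb. In CD mice at 8 weeks Dpp4 had 3 to 12 reads and Pi16 0 to 9, so the r of this pair is imprecise. With the means of marker lists Dpp4 had an r of 0.73 (interstitial progenitor), 0.66 (committed preadipocyte), 0.64 (mesothelial), 0.61 (mural) and 0.59 (small leucine-rich proteoglycans), and of 0.38 or less with the others. Cd34 had its highest r with the endothelial list (0.84), and Pdgfrb with the microfibril (0.86), fibroblast (0.85) and PDGF (0.84) lists, above the mural list (0.75). The macrophage list had an r of 0.46 to 0.67 with all members but Dpp4 (-0.02), and the adipocyte list -0.69 to -0.19. The part of other cells in these correlations was not tested.

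**Figure D3:**
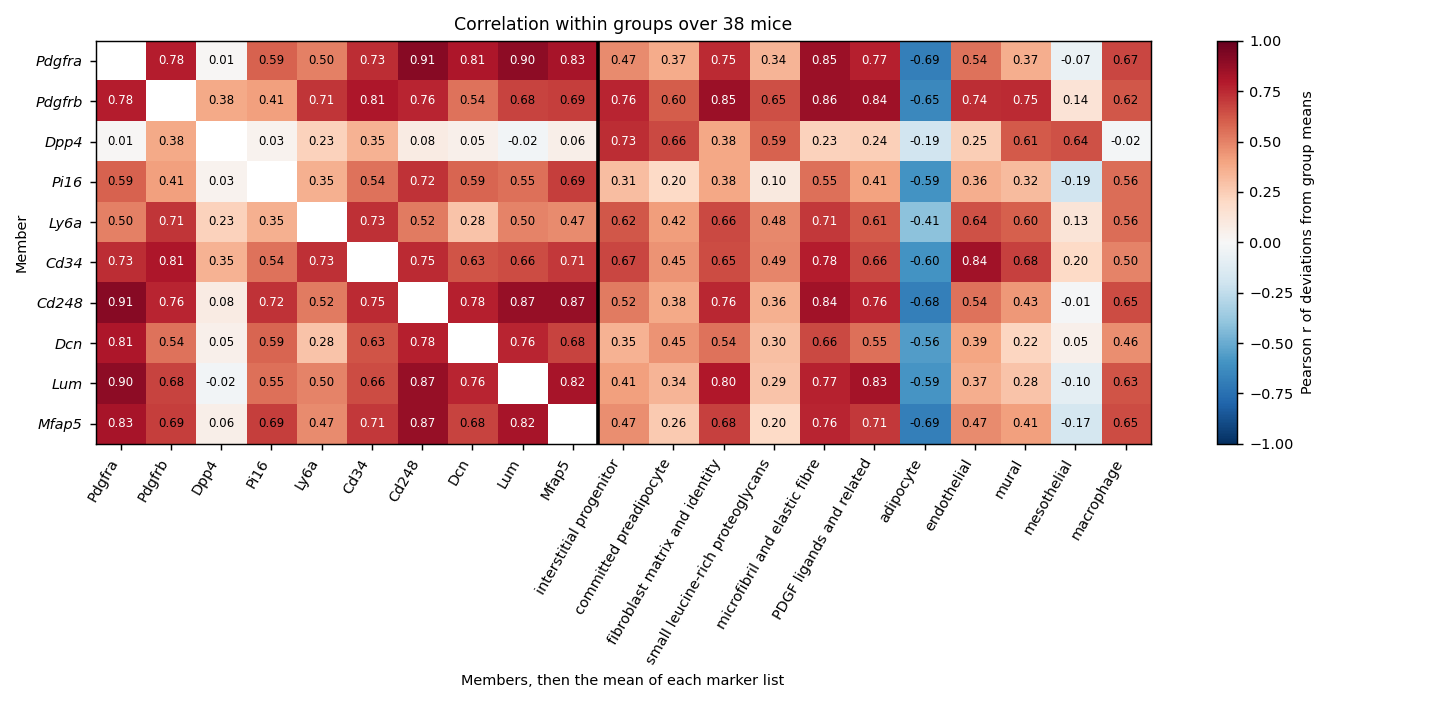
Pearson correlation over 38 mice of deviations from the group means, for each pair of members and, right of the black line, for each member and the mean of each marker list. Pdgfra, Cd248, Lum and Mfap5 form the block with the highest values, 0.82 to 0.91, while the row of Dpp4 is near 0 against most members.

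The genes whose deviations were most like those of a member, over the same 38 mice, differed by member. For Pdgfra they were Mmp2 (r = 0.95), Pla1a and Cygb (0.92 each), and for Lum they were Cpxm1 (0.96), Mmp2 (0.92) and Pcolce (0.87). Cd248 was most like Col14a1, Pla1a and Antxr1 (0.94 to 0.92), Mfap5 most like Mgp, Mmp2 and Col14a1 (0.88 to 0.87), and Dcn most like Col6a5, Antxr1 and Has1 (0.84 to 0.80). Ly6a was most like Ifitm3, Ube2l6 and Bst2 (0.86 to 0.81), which are genes known to be induced by interferon. Cd34 was most like Sparcl1, Cnn3 and Ctla2a (0.91 to 0.89), Pdgfrb most like Sh2d3c, Tnxb and Smtn (0.89 to 0.88), and Dpp4 most like Ccdc88c, Lamb3 and F2r (0.79 each).

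**Figure D4:**
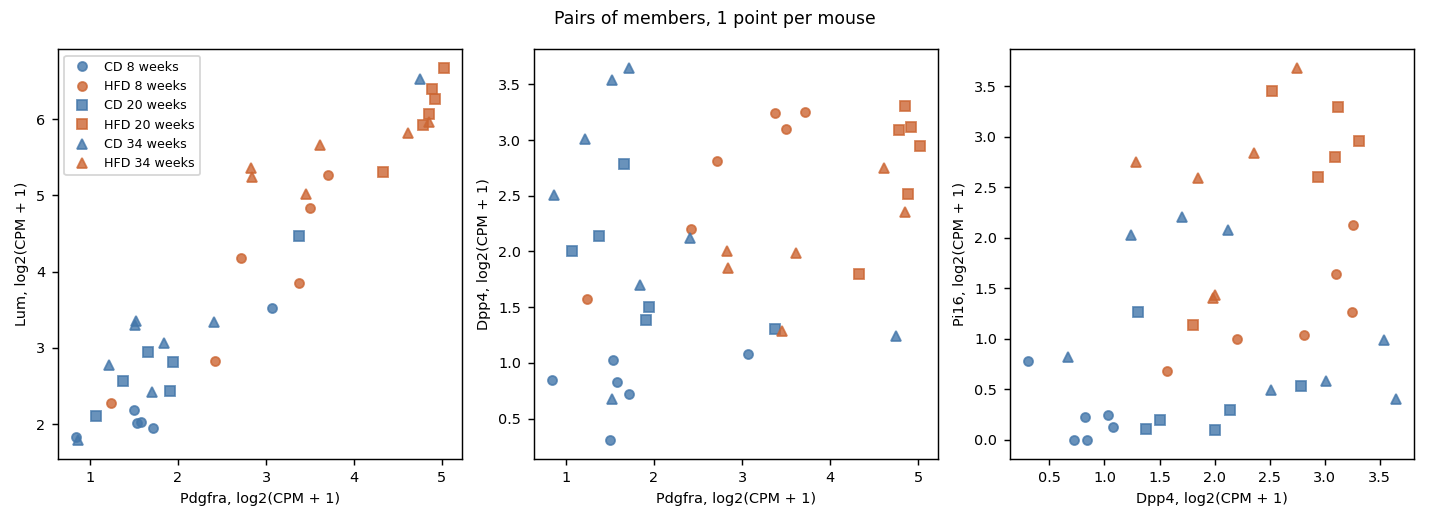
Each point is 1 mouse on log2(CPM + 1) axes, blue for CD and orange for HFD, with circles, squares and triangles for 8, 20 and 34 weeks. Pdgfra and Lum are high in the same mice, the CD triangle among the highest being CD mouse 5 at 34 weeks, whereas Dpp4 is spread over its whole range at low Pdgfra and the CD triangles with the highest Dpp4 have Pi16 below 1 on this scale.

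The promoters of Pdgfra and Dpp4 are shown because both genes are used as markers of progenitors, yet their deviations between mice had an r of 0.01. Promoters of 4 members were in the RefSeq table used here, on GRCm38.p6, from 250 bases before a transcript start to 50 after it. Both are printed 5′ to 3′ along the gene, and capitals mark the motifs searched for. These were TATAAA, the TEAD motif GGAATG, the AP-1 motif TGANTCA, the SMAD motif CAGACA and the CArG box, on both strands, and no match overlapped another.
Pdgfra promoter, chr5:75152001-75152300, plus strand: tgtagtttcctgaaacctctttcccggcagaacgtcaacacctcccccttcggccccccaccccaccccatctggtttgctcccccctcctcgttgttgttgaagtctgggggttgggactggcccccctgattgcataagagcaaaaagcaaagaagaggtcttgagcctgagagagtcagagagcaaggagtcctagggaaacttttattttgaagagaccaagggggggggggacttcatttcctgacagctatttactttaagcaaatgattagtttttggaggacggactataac
Dpp4 promoter, chr2:62412182-62412481, minus strand: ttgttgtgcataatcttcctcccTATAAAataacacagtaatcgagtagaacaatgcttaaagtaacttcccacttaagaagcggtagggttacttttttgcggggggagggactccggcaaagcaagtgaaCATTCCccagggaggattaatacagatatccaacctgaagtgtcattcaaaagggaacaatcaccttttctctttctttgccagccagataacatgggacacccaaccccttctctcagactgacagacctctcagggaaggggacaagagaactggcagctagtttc
The Dpp4 window holds TATAAA, which starts 227 bases before the transcript start, and CATTCC, the reverse complement of GGAATG, which starts 118 bases before it. None of the 5 motifs was found in the window of Pdgfra, nor in those of Cd34 and Pi16. The Pdgfra window lies wholly inside the gene span given above, at a transcript start downstream of 75151322. The sequence before 75151322 was therefore not searched. Among 32851 promoters of the same length, 13.6% held TATAAA, 14.7% GGAATG, 7.81% TGANTCA, 21.0% CAGACA and 1.63% a CArG box, the motif of serum response factor. These matches describe letters and do not show binding.

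Other genes of the same pathways and cells were read from lists chosen with earlier results of these data known, counted on the same fits. PDGF ligands and related genes had 4 of 5 tested, of which 3, 3 and 2 were higher in HFD mice at 8, 20 and 34 weeks and 0 lower (median 0.99, 1.74 and 1.09), and with either other scaling 1 was lower at 20 and at 34 weeks. Pdgfb, a ligand of both receptors, was higher by 1.81 (SE 0.47, adjusted p = 0.00261) at 8 weeks and 3.42 (SE 0.47, adjusted p = 4.92e-07) at 20 weeks, and Pdgfd, a ligand of PDGFRβ, by 2.29 (SE 0.30, adjusted p = 2.65e-07) at 20 weeks. Of 14 interstitial progenitor markers 10 were tested, with 6, 6 and 3 higher and 1, 1 and 0 lower (median 1.14, 1.33 and 0.62), or 2, 2 and 1 lower with either other scaling. Pcolce2, an enhancer of procollagen processing, was higher by 4.15 (SE 0.52, adjusted p = 6.91e-07) at 8 weeks and 3.34 (SE 0.52, adjusted p = 2.48e-06) at 20 weeks, and Clec3b, which encodes tetranectin, by 2.98 (SE 0.39, adjusted p = 2.58e-07) at 20 weeks. Committed preadipocyte markers had 7 of 11 tested, with 3, 2 and 1 higher and 1, 2 and 2 lower (median 0.23, 0.40 and -0.09). Icam1, an adhesion molecule that endothelial and immune cells also make, led the rises at 2.89 (SE 0.55, adjusted p = 4.82e-05) at 20 weeks, and Ebf2 was lower, at -0.93 (SE 0.23, adjusted p = 0.00196), at 8 weeks.

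Fibroblast matrix and identity genes had 21 of 23 tested, with 13, 18 and 9 higher and 1 lower at each time (median 1.28, 2.07 and 0.61). The median of their summed level at 8, 20 and 34 weeks was 17744, 14828 and 16548 CPM in CD mice. In HFD mice it was 19734, 20597 and 15217 CPM, which is above CD at 8 and 20 weeks and below it at 34 weeks. Fstl1, a secreted follistatin-related protein, was higher by 4.53 (SE 0.54, adjusted p = 7.51e-08) at 20 weeks and Mmp2, the matrix metalloproteinase, by 3.82 (SE 0.53, adjusted p = 6.17e-07). Of the small leucine-rich proteoglycans other than Dcn and Lum, 6 of 12 were tested, with 2, 4 and 1 higher and 1 lower at each time (median 0.24, 0.90 and 0.14). Bgn, which encodes biglycan, was higher by 2.83 (SE 0.46, adjusted p = 5.34e-06) at 20 weeks, and Podn, which encodes podocan, was lower, at -2.15 (SE 0.35, adjusted p = 2.09e-05), at 8 weeks. Microfibril and elastic fibre genes had 8 of 12 tested, with 5, 7 and 3 higher and 1, 0 and 1 lower (median 0.77, 1.31 and 0.69), and with TMM factors 4, 5 and 3 were higher. Fbn1, the fibrillin of microfibrils, was higher by 3.57 (SE 0.49, adjusted p = 5.38e-07) at 20 weeks.

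Marker lists of the other cells that the floating fraction could hold differed between the diets as well. Endothelial markers had 12 of 12 tested, with 12, 8 and 9 higher and 0 lower (median 1.28, 0.96 and 1.12), or 11, 6 and 8 with TMM factors. Their summed level in CD mice was 33.1 to 286 CPM at 8 weeks, 50.3 to 190.2 at 20 weeks and 63.6 to 179 at 34 weeks, and in HFD mice 91.6 to 451 CPM at 8 weeks, 172 to 476 at 20 weeks and 123 to 521 at 34 weeks. Macrophage markers had 11 of 12 tested, with 6, 8 and 9 higher and 0, 1 and 0 lower (median 1.50, 2.32 and 1.65). They summed to 301 to 1469 CPM at 8 weeks, 476 to 3210 at 20 weeks and 1177 to 12156 at 34 weeks in CD mice, and to 1075 to 3050 CPM at 8 weeks, 4265 to 8065 at 20 weeks and 4967 to 14791 at 34 weeks in HFD mice. Mural markers had 9 of 12 tested, with 5, 5 and 4 higher and 0, 1 and 1 lower (median 1.21, 0.71 and 0.11). The median of their summed level at 8, 20 and 34 weeks was 996, 788 and 765 CPM in CD mice. In HFD mice it was 1112, 738 and 607 CPM, which is above CD at 8 weeks and below it at 20 and 34 weeks. Mesothelial markers had 4 of 12 tested, with 3, 1 and 0 higher and 0 lower (median 1.18, 0.39 and -0.34). Adipocyte markers had 14 of 14 tested, with 2, 2 and 1 higher and 2, 10 and 10 lower (median -0.29, -0.65 and -0.57). They summed to 69440 to 86972 CPM at 8 weeks, 62460 to 92262 at 20 weeks and 44374 to 89169 at 34 weeks in CD mice, and to 61375 to 70977 CPM at 8 weeks, 45945 to 54793 at 20 weeks and 34858 to 60589 at 34 weeks in HFD mice. The 10 members summed to 177 to 303 CPM at 8 weeks, 149.6 to 257 at 20 weeks and 125 to 503 at 34 weeks in CD mice, and to 138 to 346 CPM at 8 weeks, 382 to 712 at 20 weeks and 295 to 578 at 34 weeks in HFD mice. T cell markers and markers of epididymis and testis had 0 of 10 tested each, with sums of at most 7.63 and 44.0 CPM in a mouse, and B cell markers 1 of 8. The labelled cell type, adipocytes, had a higher summed level of its markers than any other of these lists in all 38 mice. The lists hold different genes with different levels, so this order does not measure the purity of the fraction. The part of other cells in the member values was not tested.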

How the data were processed

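Adipocyte RNA from 38 mice was read as polyA-selected, stranded libraries. Reads were aligned with STAR to GRCm38 and counted per gene with featureCounts of Subread 1.5.1, per the paper's methods and the submitters' processing notes. The setting for strand is not given in the sources used here. The deposited values are CPM, scaled by the authors to the reads on listed genes and merged over the 3 technical replicates of a mouse. The methods name edgeR's TMM factors for CPM, but each deposited column summed to 1000000 and no such factor was visible in it. All values were whole multiples of 1 read within 0.1 reads (100% of values). Each column matched the label of 1 mouse, and 0 columns were left unused. No source says that mice of a group shared a cage or litter, and 103 pairs within groups all differed by more than sampling noise (chi-square per degree of freedom of at least 9.99).

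Values were taken to log2(CPM + 1) and fitted with limma 3.58.1 in R 4.3.3, with 1 mean for each of the 6 groups, over genes with a mean above 2.0, and adjusted by Benjamini-Hochberg at 0.05. Pi16 had two-sided exact permutation tests (Python 3.11.15). Both steps were tested on simulated data. The members and lists were chosen with earlier results of these data known. All 10 members are named, with the 3 genes most like each tested member and up to 4 called genes of each list with the largest change. Alternatives were pseudocounts of 0.25 and 4, no filter and a filter above 4, TMM and median-of-ratios factors, edgeR 4.0.16 and DESeq2 1.42.0 on recovered reads, groups fitted alone, array weights, a mouse number block, a 2-fold minimum and leaving out each mouse. Leaving out 3 CD mice together was chosen after seeing the data. Genes without a read in any mouse numbered 7966. Promoters came from RefSeq on GRCm38.p6.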

Additional observations from a re-analysis of the deposited data

Results flagged for a closer look

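In 18 of the 60 sets made of 1 member and 1 group, the highest or lowest mouse was far from the others by Dixon's criterion. It was applied to CPM and not to the log2(CPM + 1) scale of the fits. For normally distributed values chance meets it in about 1 of 20 sets. CPM values can be skewed towards high values and the sets share mice, so that rate may not hold here. CD mouse 4 at 8 weeks was far above the rest in Pdgfra (7.41 CPM), Pdgfrb (11.9 CPM), Cd248 (2.59 CPM) and Lum (10.5 CPM). CD mouse 1 at 20 weeks was far above in Pdgfra (9.38 CPM), Pdgfrb (14.8 CPM), Pi16 (1.40 CPM), Cd248 (3.08 CPM), Lum (21.1 CPM) and Mfap5 (4.83 CPM). CD mouse 5 at 34 weeks was far above in Pdgfra (25.8 CPM), Cd248 (9.84 CPM), Dcn (279 CPM), Lum (91.5 CPM) and Mfap5 (10.4 CPM). CD mouse 6 at 8 weeks was far above in Pi16 (0.714 CPM). HFD mouse 4 at 20 weeks was far below in Cd34 (22.8 CPM) and Dcn (239 CPM).

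The diet difference changed between times for 3 members by limma's test of the interaction. For Dcn it was larger at 20 than at 8 weeks by 1.50 and larger at 34 than at 8 weeks by 1.38 on the log2 scale. For Mfap5 it changed by -2.03 from 20 to 34 weeks, and for Dpp4 by -2.16 from 8 to 34 weeks.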

How the results depend on the processing

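Signs of called members were followed for HFD against CD at each time, 34 against 8 weeks in CD, and 20 against 8 and 34 against 20 weeks in HFD. In these no called value changed sign under any alternative. Of those values 30 no longer passed the threshold and 397 did, and with 1 mouse left out 72 no longer passed and 1372 did. Signs in the other comparisons were not followed. With the filter at 4, where 2 members (Ly6a and Dcn) were left to test, the members called were 1, 2 and 1 for HFD against CD at 8, 20 and 34 weeks, 2 each for 34 against 20 weeks and 34 against 8 weeks in CD, 2, 1 and 1 for 20 against 8, 34 against 20 and 34 against 8 weeks in HFD, and 0 and 1 for the diet difference at 34 against 20 and 34 against 8 weeks. For 20 against 8 weeks in CD, edgeR, DESeq2 and groups fitted alone each called 1 and array weights 2. For 34 against 20 weeks in CD, 2 were called with pseudocount 4, with no filter, with TMM and with median-of-ratios factors, 1 with groups fitted alone and 0 at a 2-fold minimum. For 34 against 8 weeks in CD, pseudocount 4 gave 4 and a 2-fold minimum 3. For 34 against 20 weeks in HFD, array weights gave 7 and a 2-fold minimum 1, and for 34 against 8 weeks in HFD edgeR gave 0 and DESeq2 1. The diet difference at 20 against 8 weeks had 3 with pseudocount 4 and with groups fitted alone, 6 with array weights and 5 without the 3 CD mice, and that at 34 against 20 weeks had 2 with DESeq2 and without the 3 CD mice, and 5 with array weights. The cause was not tested, except that the filter and the minimum fold leave fewer genes to call by construction.

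Leaving out 1 mouse gave 6 to 8, 8 to 9 and 6 to 7 members called for HFD against CD at 8, 20 and 34 weeks, 0 to 0, 1 to 5 and 4 to 8 for 20 against 8, 34 against 20 and 34 against 8 weeks in CD, 5 to 7, 0 to 3 and 1 to 4 for the same in HFD, and 1 to 4, 1 to 3 and 2 to 2 for the diet difference. For 34 against 20 weeks in CD, 1 was called without CD mouse 2 or 3 at 20 weeks or CD mouse 5 at 34 weeks, and 2 without CD mouse 6 at 20 weeks or CD mouse 2 at 34 weeks. For 34 against 20 weeks in HFD, 1 was called without HFD mouse 5 at 20 weeks or HFD mouse 4 at 34 weeks, and 0 without HFD mouse 1 at 34 weeks. The diet difference at 20 against 8 weeks had 3 without CD mouse 5 at 34 weeks and 2 without HFD mouse 3 at 8 weeks or HFD mouse 4 at 20 weeks. That at 34 against 20 weeks had 3 without CD mouse 6 at 34 weeks and 2 without CD mouse 1 or HFD mouse 4 at 20 weeks or HFD mouse 2 at 34 weeks.

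Mouse numbers are shared between groups, and the labels name no pairing of mice by them. Of 18 same-numbered pairs 8 had a correlation of deviations over 0.1 (range -0.51 to 0.53). Differently numbered pairs were not compared, so these correlations cannot decide whether the numbers pair mice. With the mouse number as a replicate block the counts were 6, 9 and 6 for HFD against CD, 0, 3 and 7 with time in CD, 6, 2 and 3 with time in HFD, and 1, 1 and 2 for the diet difference. At a depth of 9275711 reads or more, Pi16 in CD mice at 8 weeks rests on 0 to 9 reads a mouse, so its level there is imprecise.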
